A study of Mus musculus with 6 samples.

Results

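The genes for the receptors of serotonin, dopamine, acetylcholine, noradrenaline and adrenaline were examined in whole cortical tissue of young (6 months) and aged (16 months) mice. They were taken by symbol, as every gene named Htr, Drd, Chrm or Chrn with a receptor or subunit number or letter, or Adra1, Adra2 or Adrb. Of 38355 genes listed in the deposited count files, 50 matched. Among these, 49 encode receptors or receptor subunits: 14 serotonin, 5 dopamine, 5 muscarinic, 16 nicotinic, 6 alpha adrenergic and 3 beta adrenergic genes. The remaining one, Chrna1os, is an RNA gene annotated as antisense, which lies near Chrna1 on the opposite strand without overlapping it, and was kept apart.

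The study compared RNA sequencing of cortex from C57BL/6 mice, an inbred strain, of the 2 ages to ask how the neocortex changes with aging. Each age had 3 samples, which carried no transgene and received no treatment. The labels of these samples give no sex, while the study's methods state, where they describe sorted cells, that RNA sequencing was done in males. The housing description names 3 months where the sample labels give 6 months. The tissue was not sorted, so every value is a mixture over neurons, glia, vessels and any adjoining tissue, and a loss of cells of one type and less RNA per cell cannot be told apart.

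Most of these receptors are G protein-coupled: ligand binding activates Gq proteins, which raise phospholipase C activity and intracellular calcium, Gi proteins, which inhibit adenylyl cyclase, or Gs proteins, which stimulate it. The nicotinic receptors and the serotonin receptor built from Htr3a are ligand-gated cation channels. In the neocortex their ligands arrive mainly through long axons: serotonin from the raphe nuclei, dopamine from the ventral midbrain, noradrenaline from the locus coeruleus and acetylcholine from the basal forebrain. The receptors themselves are made by cortical pyramidal cells, interneurons and glia, so their mRNA is found in the cortex while that of most enzymes making the ligands lies elsewhere.

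Between 29797253 and 46519280 reads were assigned to genes per sample, and values are given as counts per 1000000 such reads (CPM) after library-size normalization. At this depth 3 counts correspond to 0.0640 to 0.0999 CPM, which limits what can be said of a gene with no count, for counting error only. Slc17a7, the vesicular glutamate transporter of cortical excitatory neurons, was read at 941 to 1247 CPM. The Gad1-containing list of interneuron markers summed to 1156 to 1186 CPM at 6 months and 1198 to 1234 CPM at 16 months. Of its 12 genes, 1 was called higher and 1 lower. Markers of several tissues next to the cortex were also present and separated the ages. The summed striatal markers ran from 1019.6 to 1039 CPM at 6 months and from 1125 to 1159 CPM at 16 months, with 3 of 14 tested genes called higher. The thalamic markers ran from 132 to 135 CPM and from 163 to 178 CPM (6 of 10 called higher). The dentate gyrus markers ran from 69.6 to 72.9 CPM and from 92.6 to 97.2 CPM (4 of 7), and the choroid plexus markers from 18.8 to 20.4 CPM and from 27.6 to 31.2 CPM (1 of 9). The blood markers ran from 27.3 to 30.7 CPM and from 44.9 to 50.3 CPM (2 of 5), while of the 9 cortical excitatory markers 0 were called and 0 had an unadjusted p under 0.05 (edgeR). Of all 17120 genes tested, 0.783% were called higher and 0.888% lower. Not all lists rose. The meningeal markers ran from 43.1 to 45.6 CPM at 6 months and from 33.9 to 36.2 CPM at 16 months (1 of 4 called lower). The vascular markers ran from 280 to 289 CPM and from 263 to 271 CPM (1 of 11 called lower). The hippocampal pyramidal markers overlapped, at 26.7 to 29.8 CPM and 27.5 to 33.4 CPM (0 of 4 called). The glial lists lay apart as well. Astrocyte markers summed to 6357 to 6715 CPM at 6 months and 6857 to 7544 CPM at 16 months (1 of 8 called lower). Oligodendrocyte markers summed to 6940 to 7016 CPM and 7026 to 7046 CPM (1 of 8 called higher), with a narrow gap. Microglial markers summed to 578 to 601 CPM and 569 to 577 CPM (2 of 10 called lower). The part of these shifts in the receptor results was not tested.

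Levels between genes were compared per length, as CPM per kilobase (kb) of exons, averaged over the 6 samples. The highest were the muscarinic genes Chrm1 and Chrm4, at 23.8 and 23.3 CPM per kb, which did not differ beyond the spread of Chrm1 over the samples. They were followed by Adra1d at 13.9, Drd1 at 8.72, Adrb1 at 7.09, Chrna4 at 6.85 and Chrnb2 at 6.23 CPM per kb. Serotonin receptor genes reached at most 4.79 CPM per kb, for Htr5a, and Htr1a, Htr2a and Htr2c lay close below it at 4.24, 4.19 and 4.06 CPM per kb. At the other end, Chrna9, Chrnd and Chrng had no count in any sample, and Htr3b had between 0 and 2 counts. Chrnd and Chrng encode subunits of the muscle receptor and Chrna9 one of the inner ear. Together, 46 of the 49 receptor genes had at least 1 count and 40 had enough counts to be tested. The 9 that were not tested were Htr3b, Drd3, Drd4, Chrna9, Chrna10, Chrnb4, Chrnd, Chrne and Chrng.

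**Figure D1:**
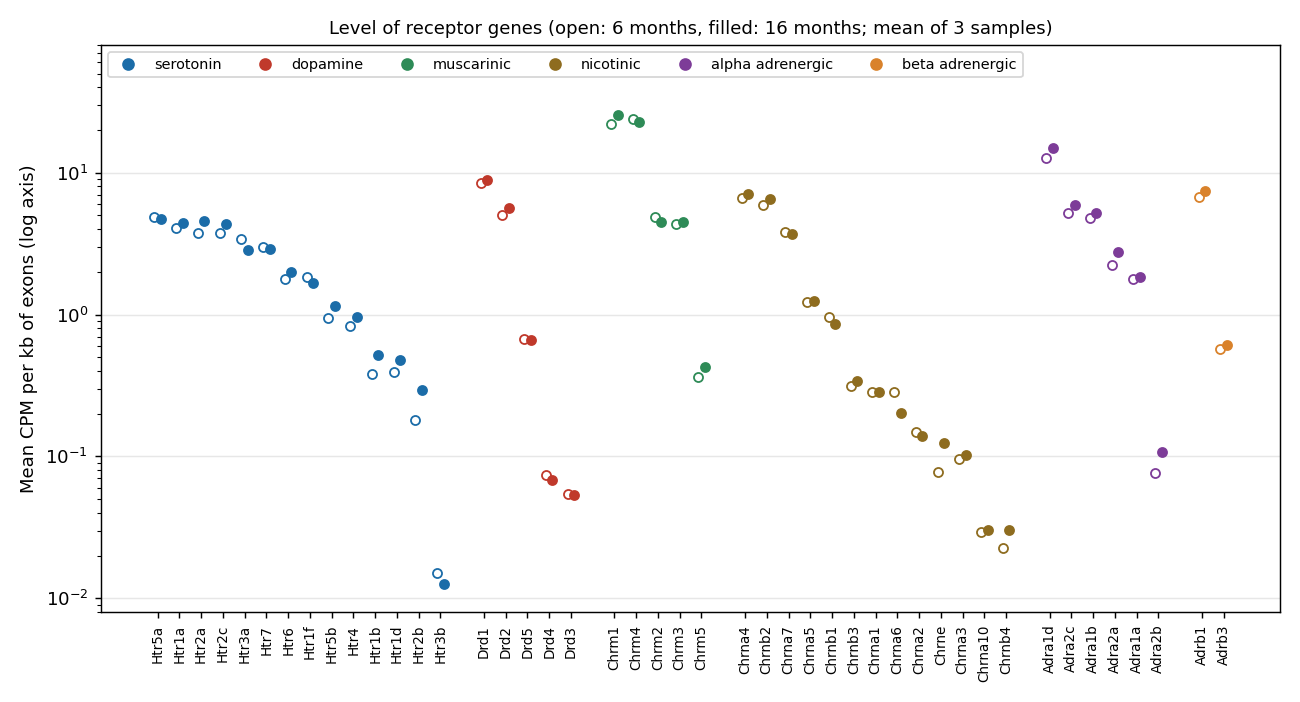
Mean CPM per kb of exons (log axis) of the receptor genes with a count, 1 of them not shown, at 6 months (open) and 16 months (filled), coloured by transmitter class; each point is the mean of 3 samples. Within each class the levels span more than the ages differ: the serotonin genes run from 4.79 CPM per kb for Htr5a to 0.0139 CPM per kb for Htr3b.

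With age, the receptor genes moved little. When all 17120 genes with enough counts were tested (edgeR, quasi-likelihood, p adjusted after Benjamini and Hochberg over all of them), 1 of the 40 tested receptor genes passed an adjusted p of 0.05. This was Htr2a, the Gq-coupled serotonin receptor of cortical pyramidal cells, which rose by 21.3%. DESeq2's Wald test also called Htr2a and no other receptor gene. Over all genes, 286 passed, or 1.67%, with 134 (0.783%) up and 152 (0.888%) down with age, so that 1 of 40 is near the background. At an unadjusted p under 0.05 there were 7 receptor genes (17.5%), against 17.4% of all genes. Htr2a, Htr2b, Htr2c, Htr4, Chrm1 and Adra2a were on the higher side, as 8.57% of all genes were, and Htr3a on the lower, as 8.88% were. The samples of the ages did not overlap for 7 receptor genes (17.5%), against 23.7% of all genes: 5 were higher (12.2% of all genes) and 2 lower (11.5%). Of the 40, 28 (70%) had a positive log2 fold change (16 over 6 months) and 12 a negative one, while 50.3% of all genes were positive. The median log2 fold change of the 40 was 0.11 against 0.0014 over all genes, and single values ran from -0.52 for Chrna6 to 0.72 for Htr2b. For 27 of the 40, the 95% interval of the log2 fold change lay within 0.5 in either direction, which 75.2% of all genes met. Without replicate 1 of 16 months, 23 of 40 (57.5%) were positive. On leaving out any other single sample the share was 65.9 to 78.0%. With counts corrected for GC content and gene length it was 67.5%.

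**Figure D2:**
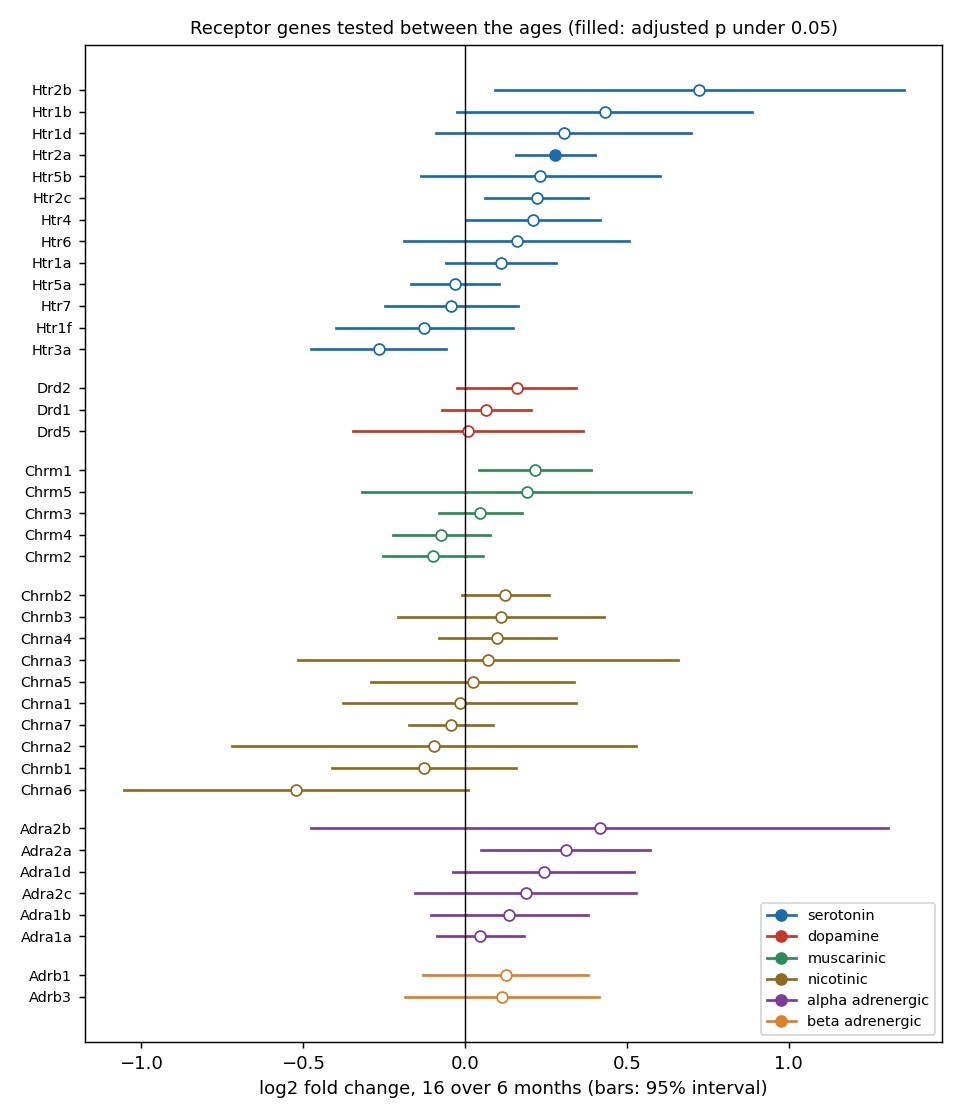
Log2 fold change (16 over 6 months) of the 40 tested receptor genes, 1 of them not shown, with 95% intervals, grouped by transmitter class; filled points passed an adjusted p of 0.05. Htr2a, at 0.28, is the only filled point, and the widest intervals belong to genes with few counts such as Adra2b (-0.48 to 1.31).

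Among the serotonin receptor genes, 13 were tested, with 9 positive and 4 negative log2 fold changes and a median of 0.21. Htr2a (ENSMUSG00000034997, chr14:74640840-74709494 on the plus strand, GRCm38) measured 21.5, 20.9 and 21.3 CPM in replicates 1 to 3 of 6 months and 25.7, 26.1 and 25.5 CPM in those of 16 months. All aged samples lay above all young ones, and the spread within either age was small beside the gap. The mean went from 21.2 ± 0.287 to 25.8 ± 0.315 CPM (SD, n = 3), a log2 fold change of 0.28 (SE 0.0547, 95% interval 0.16 to 0.40, edgeR quasi-likelihood adjusted p = 0.0359). The call rested on having all young samples: without any one of them, or without replicate 3 of 16 months, the log2 fold change stayed between 0.27 and 0.29 but the adjusted p was 0.174 to 0.211. In the same settings the calls over all genes fell from 286 (1.67%) to between 48 and 58 (0.277 to 0.335%).

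The other Gq-coupled serotonin receptors, Htr2b and Htr2c, did not pass. Htr2c (chrX:146962513-147197277, plus strand), the receptor shared by cortical neurons and the choroid plexus epithelium, measured 34.8, 34.4 and 35.7 CPM at 6 months and 36.8, 44.5 and 40.9 CPM at 16 months. The groups did not overlap, but the aged samples spread more widely (SD 3.85 against 0.674 CPM). Its log2 fold change was 0.22 (95% interval 0.06 to 0.38, edgeR quasi-likelihood adjusted p = 0.159). It passed at an adjusted p of 0.00774, with a log2 fold change of 0.29, without replicate 1 of 16 months, and at 0.00092 with the counts corrected for GC content and gene length. The choroid plexus gene Ttr, which carries thyroid hormone, rose over the same samples, from a range of 8.51 to 9.59 CPM to one of 16.6 to 18.7 CPM, and its part in the Htr2c values was not tested. Htr2b (chr1:86099026-86111970, minus strand) had only 16, 13 and 16 counts at 6 months and 14, 24 and 24 at 16 months, or 0.341, 0.433 and 0.381 CPM against 0.422, 0.765 and 0.702 CPM. Its groups overlapped, and the log2 fold change of 0.72 had an interval of 0.09 to 1.35 (edgeR quasi-likelihood adjusted p = 0.226). Of its exon bases, 11.8% lie opposite Psmd1, a proteasome subunit gene, and as the strand setting of the counting was not stated, reads there cannot be told apart.

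Because these 3 genes form one receptor family and share the direction of their values, the 250 bases before their transcription starts are shown, from RefSeq on GRCm38.p6. Each is read 5′ to 3′ on the strand of its gene, with CG dinucleotides, the sites at which cytosine is methylated, in capitals. The regions are chr14:74640624-74640873 (plus) for Htr2a, chr1:86111981-86112230 (minus) for Htr2b and chrX:146962263-146962512 (plus) for Htr2c. The RefSeq starts of Htr2a and Htr2b differ from the gene coordinates given above. The Htr2a stretch runs past the gene start given there, at 74640840, so its last bases lie inside that gene. The Htr2b stretch does not adjoin the gene end given there, at 86111970.
Htr2a: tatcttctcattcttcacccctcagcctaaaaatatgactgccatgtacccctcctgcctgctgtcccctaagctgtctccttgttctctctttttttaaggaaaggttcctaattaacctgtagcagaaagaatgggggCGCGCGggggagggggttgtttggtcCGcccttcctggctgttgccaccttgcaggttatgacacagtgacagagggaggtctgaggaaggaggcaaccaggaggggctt
Htr2b: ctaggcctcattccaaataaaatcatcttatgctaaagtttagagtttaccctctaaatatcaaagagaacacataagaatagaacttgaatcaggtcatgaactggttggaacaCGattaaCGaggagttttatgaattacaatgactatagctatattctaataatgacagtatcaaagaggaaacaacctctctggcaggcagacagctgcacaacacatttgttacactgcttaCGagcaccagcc
Htr2c: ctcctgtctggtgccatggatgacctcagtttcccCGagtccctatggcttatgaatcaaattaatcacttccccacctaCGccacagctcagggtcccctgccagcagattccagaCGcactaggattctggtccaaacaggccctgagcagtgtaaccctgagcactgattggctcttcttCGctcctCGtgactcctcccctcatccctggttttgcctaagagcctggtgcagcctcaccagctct
The Htr2a stretch holds 4 CG, that of Htr2b 3 and that of Htr2c 5, and a CG reads the same on both strands. The median over 32841 RefSeq promoters of the same length was 6, and 62.2%, 71.0% and 55.6% of them held at least as many as Htr2a, Htr2b and Htr2c. All lie below the median, in the range most promoters exceed or equal. Methylation was not measured in these samples, and the count is a description of the sequence.

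Htr3a, the subunit of the serotonin-gated channel found on a large class of superficial interneurons, was the one serotonin receptor gene with a lower value at an unadjusted p under 0.05. It measured 7.80, 6.66 and 6.91 CPM at 6 months and 6.33, 5.99 and 5.53 CPM at 16 months. Every aged sample lay below every young one, with a narrow gap. The log2 fold change was -0.27 (SE 0.0934, 95% interval -0.48 to -0.06, edgeR quasi-likelihood adjusted p = 0.185). With counts corrected for GC content and gene length it was -0.28 and passed (adjusted p = 0.0395). Vip, which marks one type of Htr3a-containing interneuron, measured 61.8, 64.6 and 63.2 CPM against 53.7, 64.6 and 55.7 CPM and did not pass (log2 fold change -0.12, edgeR quasi-likelihood adjusted p = 0.414). The list of 12 interneuron markers that holds Vip had a median log2 fold change of 0.08. In that list 3 genes were higher and 1 lower at an unadjusted p under 0.05 (edgeR). Htr3b, whose product joins Htr3a in the channel, was at or under 3 counts in every sample.

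Htr4, a Gs-coupled receptor, measured 4.11, 4.33 and 3.84 CPM at 6 months and 4.49, 4.75 and 4.92 CPM at 16 months. The groups were apart by a small margin, with a log2 fold change of 0.21 (95% interval 0.00 to 0.42) and an edgeR quasi-likelihood adjusted p of 0.278. The serotonin receptor genes with the highest levels per length over both ages, Htr5a and Htr1a, did not pass. Htr5a, a Gi-coupled receptor, measured 27.0, 24.8 and 26.3 CPM against 25.0, 26.6 and 24.9 CPM, with an interval of -0.17 to 0.10. Htr1a, the Gi-coupled receptor that hyperpolarizes pyramidal cells, measured 17.1, 17.7 and 20.1 CPM against 19.8, 20.5 and 19.0 CPM, with an interval of -0.06 to 0.28. In both genes the ages overlapped. The remaining 6 tested genes (Htr1b, Htr1d, Htr1f, Htr5b, Htr6 and Htr7) had log2 fold changes from -0.13 for Htr1f to 0.43 for Htr1b, none with an unadjusted p under 0.05.

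**Figure D3:**
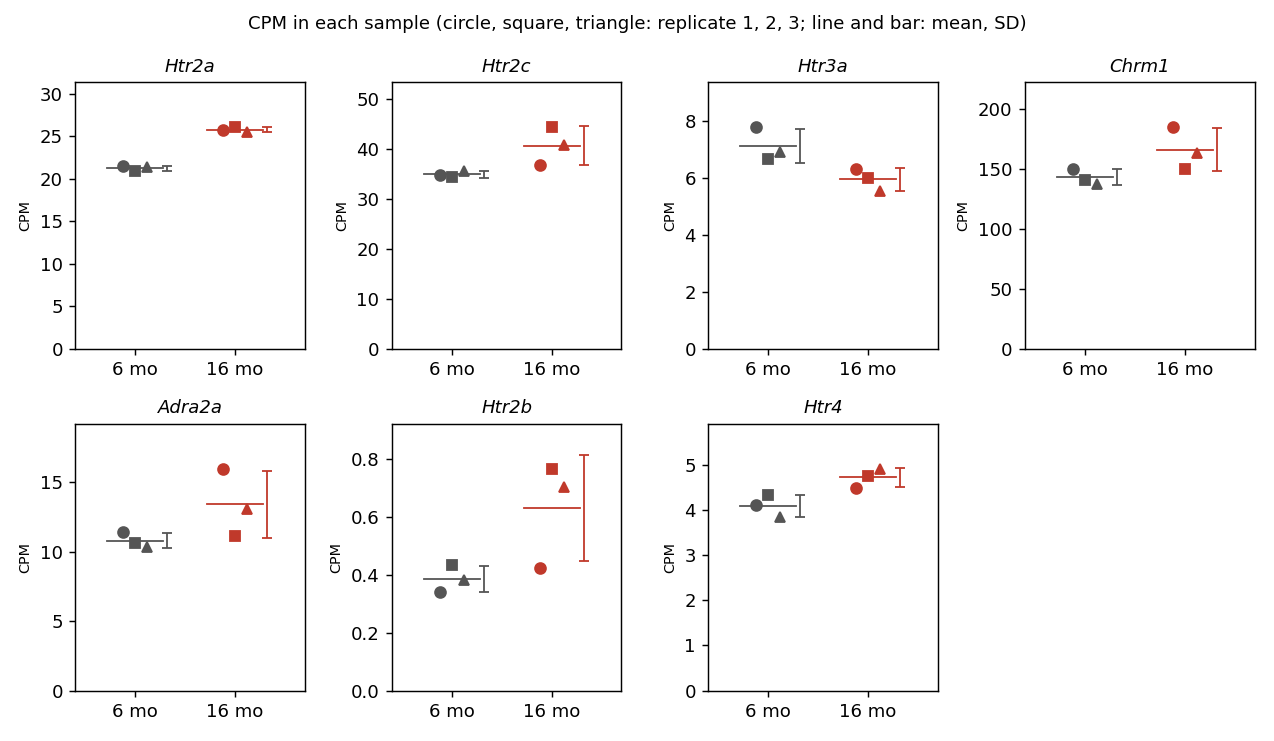
CPM in each of the 3 samples per age for the 7 receptor genes with an unadjusted p under 0.05, with the mean and SD; markers give the replicate number. In Htr2a the 3 aged samples sit together at 25.5 to 26.1 CPM, whereas in Chrm1 and Adra2a replicate 1 of 16 months stands above the other two.

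None of the 3 tested dopamine receptor genes passed, and 0 had an unadjusted p under 0.05 by edgeR's main test or DESeq2. Under some edgeR alternatives Drd2 had an unadjusted p under 0.05, but it did not pass. Drd1, the Gs-coupled receptor, measured 29.9, 32.7 and 30.2 CPM at 6 months and 30.7, 33.3 and 32.9 CPM at 16 months. Its samples were intermixed, and the log2 fold change of 0.07 had an interval of -0.07 to 0.20. Drd2, the Gi-coupled receptor, measured 13.7, 11.5 and 13.3 CPM against 15.3, 13.5 and 14.4 CPM, with a log2 fold change of 0.16 (interval -0.03 to 0.34, edgeR quasi-likelihood adjusted p = 0.358). The median of the 3 tested genes was 0.07, and on leaving out 1 sample it ran from 0.04 to 0.10 over the same genes. Both Drd1 and Drd2 are far more abundant in the striatum than in the cortex, and the striatal markers, which include the adenosine receptor Adora2a and the phosphodiesterase Pde10a, were present throughout. Pde10a rose, with a log2 fold change of 0.31 (edgeR quasi-likelihood adjusted p = 0.0145), while Adora2a did not pass (0.08, adjusted p = 0.651). Their part in the Drd1 and Drd2 values was not tested. Drd5 had a log2 fold change of 0.01 with an interval of -0.35 to 0.36, and 48.6% of its exon bases lie opposite the antisense gene Gm26560. Drd3 had 2 to 5 counts and Drd4 had 3 to 14 counts per sample.

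Of the 5 muscarinic genes, Chrm1 had the lowest p. Chrm1 (chr19:8663789-8683587, plus strand), the Gq-coupled receptor of pyramidal cells, measured 150.0, 141 and 137 CPM at 6 months and 185, 149 and 163 CPM at 16 months. The ages overlapped, since replicate 2 of 16 months lay just below replicate 1 of 6 months, and replicate 1 of 16 months was the highest of all. The mean went from 143 ± 6.64 to 166 ± 17.9 CPM (SD, n = 3), a log2 fold change of 0.22 (SE 0.0776, 95% interval 0.04 to 0.39, edgeR quasi-likelihood adjusted p = 0.196). It passed without replicate 2 of 16 months (0.28, adjusted p = 0.0155) but was 0.13 without replicate 1 (adjusted p = 0.181). With counts corrected for GC content and gene length it was 0.16 and passed (adjusted p = 0.0135). Chrm4, a Gi-coupled receptor, measured 35.7, 32.6 and 34.9 CPM against 34.9, 30.5 and 32.9 CPM, with intermixed samples and an interval of -0.22 to 0.08. For Chrm2 (Gi) and Chrm3 (Gq) the intervals were -0.26 to 0.05 and -0.08 to 0.17, and for the low gene Chrm5 the interval was -0.32 to 0.70.

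None of the 10 tested nicotinic genes passed or had an unadjusted p under 0.05 by edgeR's main test or DESeq2, and their log2 fold changes were split evenly, 5 positive and 5 negative, with a median of 0.0031. Under some edgeR alternatives Chrna4, Chrna6 and Chrnb2 had an unadjusted p under 0.05, but none passed. Chrna4 and Chrnb2, the subunits of the main high-affinity nicotine receptor of the brain, had the highest levels. Chrna4 measured 35.2, 30.5 and 33.7 CPM at 6 months and 38.4, 31.9 and 36.5 CPM at 16 months, overlapping between ages, with an interval of -0.08 to 0.28. Chrnb2 measured 51.1, 48.4 and 50.4 CPM against 58.5, 52.5 and 52.4 CPM. Its ages did not overlap, yet the log2 fold change of 0.12 had an interval of -0.01 to 0.26 (edgeR quasi-likelihood adjusted p = 0.326). Of its exon bases, 16.3% lie opposite Adar, an RNA-editing enzyme gene. Chrna7, which forms a channel of its own with high calcium permeability, measured 17.1, 17.5 and 17.1 CPM against 16.8, 16.8 and 16.4 CPM. Its samples were also apart, in the lower direction, but by a log2 fold change of only -0.04 (interval -0.17 to 0.09). The most negative value among all receptor genes, -0.52 for Chrna6 (interval -1.05 to 0.01, edgeR quasi-likelihood adjusted p = 0.294), came from a gene at 0.513 to 1.00 CPM in overlapping samples. The opposite-strand RNA Chrna1os had a log2 fold change of -0.43 (interval -1.01 to 0.15), and Chrna1 itself one of -0.02 (interval -0.38 to 0.34). Chrna3 and Chrnb4, which are typical of the medial habenula, were at 0.433 to 0.663 CPM and 0.0426 to 0.159 CPM. The habenular markers summed to 77.5 to 79.8 CPM at 6 months and 86.2 to 92.0 CPM at 16 months. Of 4 tested, 1 was called higher, against 0.783% of all genes.

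All 6 alpha adrenergic genes had positive log2 fold changes, with a median of 0.21, and none passed. Adra1d, a Gq-coupled receptor, measured 24.2, 23.2 and 24.9 CPM at 6 months and 35.1, 23.0 and 27.4 CPM at 16 months. Replicate 1 of 16 months was far above the rest and replicate 2 of 16 months was the lowest sample, so that the ages overlapped. The log2 fold change was 0.24 (SE 0.126, 95% interval -0.04 to 0.52, edgeR quasi-likelihood adjusted p = 0.353), 0.37 without replicate 2 of 16 months (adjusted p = 0.0214) and 0.07 without replicate 1 (adjusted p = 0.655). Adra2c, a Gi-coupled receptor, showed the same order, at 17.5, 17.0 and 18.9 CPM against 26.5, 16.3 and 18.0 CPM. Its log2 fold change was 0.19 (interval -0.15 to 0.53) and turned to -0.06 without replicate 1 of 16 months. Adra2a, the Gi-coupled autoreceptor that is also postsynaptic on pyramidal cells, measured 11.4, 10.6 and 10.4 CPM against 16.0, 11.2 and 13.1 CPM. Replicate 2 of 16 months fell among the young samples, and the log2 fold change was 0.31 (SE 0.117, interval 0.05 to 0.57, edgeR quasi-likelihood adjusted p = 0.211). It passed without replicate 2 of 16 months (0.42, adjusted p = 0.0154) but was 0.16 without replicate 1 (adjusted p = 0.273). With counts corrected for GC content and gene length it passed (adjusted p = 0.0199), as did Adra1d (adjusted p = 0.0157). Adra1a, Gq-coupled, had an interval of -0.09 to 0.18, Adra1b, Gq-coupled, one of -0.10 to 0.38, and the low gene Adra2b one of -0.48 to 1.31.

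Of the 3 beta adrenergic genes, which couple to Gs, none passed or had an unadjusted p under 0.05 by edgeR's main test or DESeq2. Adrb1, the main neuronal one, measured 23.3, 22.4 and 23.2 CPM at 6 months and 29.7, 20.2 and 25.1 CPM at 16 months. The highest and the lowest sample were both aged, in the same replicates as for Adra1d. The log2 fold change of 0.13 (interval -0.13 to 0.38) became -0.02 without replicate 1 of 16 months. It was 0.25 when replicate 2 was left out instead (edgeR quasi-likelihood adjusted p = 0.0422). Adrb3 had an interval of -0.19 to 0.41.

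The order of the aged samples in the adrenergic genes went with GC content. Over 16904 tested genes, the deviation of a gene from its age mean correlated with the GC content of its longest transcript at r = 0.588 in replicate 1 of 16 months and r = -0.582 in replicate 2 of 16 months. Over the 40 tested receptor genes the values were 0.608 and -0.633, and the log2 difference between these samples correlated with GC content at r = 0.634 and rho = 0.667. These are correlations over genes of the same libraries and are given as descriptions. The receptor genes had a median GC content of 50.1%, from 39.4% for Htr1f to 65.5% for Adra2c, and Htr2a at 41.3% and Htr2c at 42.1% lay at the low end while Adra1d stood at 65.4%. The summed CPM of the alpha adrenergic genes was 82.5 to 86.9 at 6 months and 114, 81.6 and 93.7 in replicates 1 to 3 of 16 months. That of the serotonin receptor genes was 133 to 138 at 6 months and 146 to 153 at 16 months, without such a split. When counts were corrected for GC content and gene length, 6 receptor genes passed: Htr2a, Htr2c, Htr3a, Chrm1, Adra1d and Adra2a. That is 15% of those tested, against 13.6% of all genes under the same correction. With a replicate block added 7 passed, or 17.5% against 19.1%, and with the block alone 1, against 4.57%. Without replicate 2 of 16 months 6 of 41 passed, or 14.6% against 12.7%, and without replicate 1 of 16 months 2 of 40, or 5% against 5.73%. Under each of these settings the share of receptor genes was near that of all genes.

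**Figure D4:**
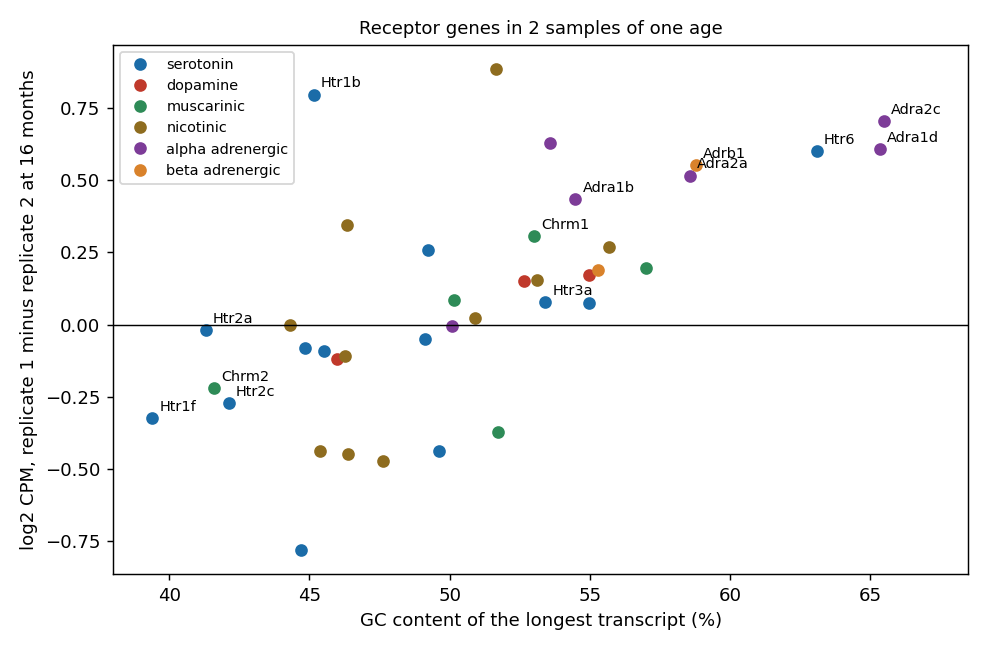
Log2 CPM difference between replicates 1 and 2 of 16 months against the GC content (%) of the longest transcript, for the 40 tested receptor genes, 1 of them not shown, coloured by class. Genes with high GC content such as Adra1d, Adra2c, Adra2a and Adrb1 were higher in replicate 1, while Htr2a, at 41.3%, was close to 0.

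Set out by the signalling partner of each receptor, a textbook grouping made after the values were seen, the 9 Gq-coupled genes (Htr2a, Htr2b, Htr2c, Chrm1, Chrm3, Chrm5, Adra1a, Adra1b and Adra1d) all had positive log2 fold changes. Of all genes tested 50.3% were positive. Their median was 0.22, and 4 of them (44.4%) had an unadjusted p under 0.05, against 17.4% of all genes. Among the tested Gi-coupled genes 7 were positive and 4 negative, among the Gs-coupled genes 6 and 2, and among the channel subunits 5 and 6, with 1 gene each at an unadjusted p under 0.05. Htr5b, whose coupling is not settled, was left out, and no test of the difference between these groups was made.

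The balance between receptors was followed by 4 ratios of CPM per kb, with an exact two-sided permutation test over 3 against 3 samples, which cannot go below p = 0.1. The ratio of Htr2a to Htr3a was 1.11 ± 0.0785 at 6 months and 1.61 ± 0.101 at 16 months. As Htr2a lay apart upwards and Htr3a downwards, this ratio had to lie apart too, and it is given with no test. That of Htr2a to Htr1a was 0.934 ± 0.0785 and 1.04 ± 0.0292 (exact permutation p = 0.1, not adjusted), with no overlap between the ages. As Htr2a was already the called gene, this ratio is no separate support for its rise. Drd1 to Drd2 went from 1.71 ± 0.248 to 1.58 ± 0.159 (exact permutation p = 0.6) and Chrna4 to Chrnb2 from 1.11 ± 0.0498 to 1.09 ± 0.0761 (exact permutation p = 0.8), with overlapping samples in both.

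Genes that make, carry and break down the transmitters were described from lists of textbook members. Of 10 tested genes for monoamine synthesis, transport and breakdown 1 was called, against 1.67% of all genes. This was Slc29a4, a low-affinity monoamine transporter of the plasma membrane. It measured 5.20, 4.70 and 5.03 CPM at 6 months and 10.1, 7.36 and 8.08 CPM at 16 months, a log2 fold change of 0.77 (SE 0.119, 95% interval 0.50 to 1.04, edgeR quasi-likelihood adjusted p = 0.0137). Every aged sample was above every young one. Slc29a4 is also made by choroid plexus epithelium, whose marker Ttr had a log2 fold change of 1.00, and the part of that tissue was not tested. Maoa, which degrades serotonin and noradrenaline, and Ddc, which makes dopamine and serotonin from their precursors, had log2 fold changes of -0.17 and -0.28 and did not pass (edgeR quasi-likelihood adjusted p = 0.169 and 0.210). Maoa passed without replicate 2 of 16 months (edgeR quasi-likelihood adjusted p = 0.0285), where 12.7% of all genes passed. Maob, another breakdown enzyme, had an interval of -0.14 to 0.10. The transporters of the projecting neurons were almost absent: Slc6a4 (serotonin) was at most 0.0293 CPM, Slc6a2 (noradrenaline) at most 0.0585 CPM and Slc6a3 (dopamine) at most 0.0956 CPM.

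Among 6 tested genes of acetylcholine synthesis, transport and breakdown, 2 were called, against 1.67% of all genes: Colq rose and Bche fell. Colq, the collagen tail that anchors acetylcholinesterase, measured 0.554, 0.433 and 0.476 CPM at 6 months and 1.48, 1.15 and 1.29 CPM at 16 months. The log2 fold change was 1.39 (SE 0.199, 95% interval 0.95 to 1.84, edgeR quasi-likelihood adjusted p = 0.00991). Bche, butyrylcholinesterase, which also cleaves acetylcholine, measured 11.7, 11.9 and 11.9 CPM against 7.96, 9.76 and 8.34 CPM, a log2 fold change of -0.44 (SE 0.0847, edgeR quasi-likelihood adjusted p = 0.0313). In both genes the ages were well apart. Ache itself, at 41.7, 38.6 and 40.5 CPM against 52.3, 42.5 and 45.3 CPM, did not pass (0.21, adjusted p = 0.197). Of 8 nicotinic accessory genes 1 was called, against 1.67% of all genes. This was Lypd1, whose membrane-anchored product binds nicotinic receptors. Lypd1 rose from 30.5, 26.6 and 27.1 CPM to 37.2, 38.5 and 35.8 CPM (log2 fold change 0.40, SE 0.0675, edgeR quasi-likelihood adjusted p = 0.0202). Lypd6, of the same family, had a log2 fold change of -0.21 and did not pass (adjusted p = 0.184). Under some edgeR alternatives Ache and Lypd6 passed (quasi-likelihood adjusted p down to 0.00682 and 0.00636). With counts corrected for GC content and gene length, 3 of 6 acetylcholine genes and 3 of 8 accessory genes passed, against 13.6% of all genes. Without any one young sample or without replicate 3 of 16 months, Colq, Slc29a4 and Bche did not pass (adjusted p up to 0.0828, 0.101 and 0.192), and Lypd1 did not pass without replicate 2 or 3 of 6 months or replicate 3 of 16 months (up to 0.153). In these settings the calls over all genes fell as well, from 286 to between 48 and 58.

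**Figure D5:**
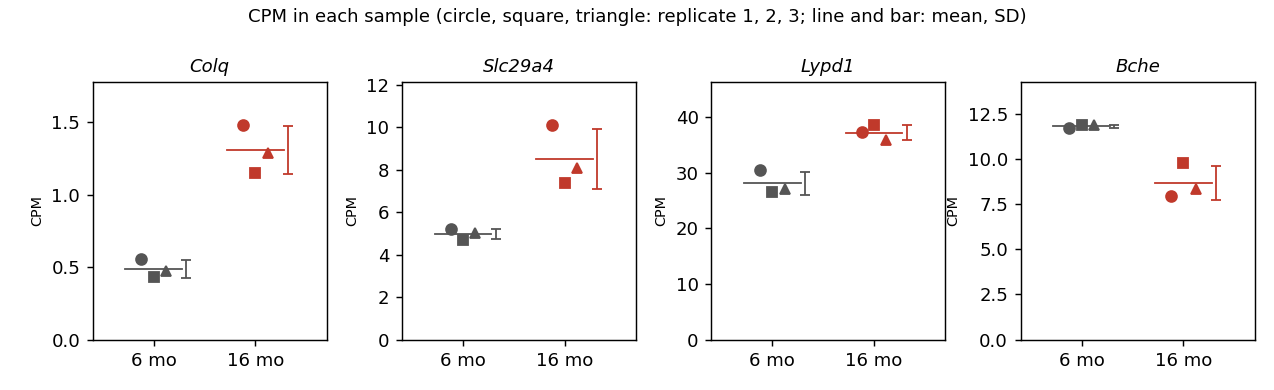
CPM in each of the 3 samples per age of Colq, Slc29a4, Lypd1 and Bche, with mean and SD. These are the genes of the transmitter and accessory lists that passed by edgeR's main test. The 3 aged samples lie above the young ones for Colq, Slc29a4 and Lypd1 and below them for Bche, at 7.96 to 9.76 CPM against 11.7 to 11.9 CPM.

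Downstream of the receptors, none of 25 tested G protein alpha subunits and effectors and none of 14 receptor kinases, arrestins and RGS proteins passed by edgeR's quasi-likelihood test. At an unadjusted p under 0.05 there were 7 and 3, all higher, against 8.57% of all genes. By DESeq2's Wald test 1 gene of each list passed, against 1.71% of all genes. With counts corrected for GC content and gene length 6 of 25 and 5 of 14 passed, against 13.6% of all genes, and without replicate 2 of 16 months 8 of 26 and 2 of 14, against 12.7%. The genes at an unadjusted p under 0.05 by edgeR with all samples were Gnal, Gnaq, Gnao1, Kcnj6, Adcy2, Adcy8 and Adcy9 in the first list. In the second they were the RGS genes Rgs4, Rgs8 and Rgs14, whose products speed the inactivation of G proteins. Rgs8 measured 106, 109 and 106 CPM against 132, 123 and 122 CPM (log2 fold change 0.23, interval 0.11 to 0.35, edgeR quasi-likelihood adjusted p = 0.0658). Gnal, the alpha subunit that couples Drd1 to adenylyl cyclase in the striatum, had a log2 fold change of 0.23 (adjusted p = 0.0681), and Gnaq, the alpha subunit of Gq, one of 0.16 (adjusted p = 0.146). The 3 tested other aminergic receptors had no value with an unadjusted p under 0.05.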

How the data were processed

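RNA of whole cortical tissue was sequenced from C57BL/6 mice of 6 and 16 months, 3 samples each. The authors deposited raw read counts per Ensembl gene for each sample. The submitters' processing notes name CASAVA 1.8.2, STAR 2.3.0e, featureCounts 1.5.0-p1 and mm10, whereas the study's methods and the closing lines of the files name HTSeq as the counter. The strand setting was not stated. Besides Htr2b, Drd5 and Chrnb2, other receptor genes had exon bases opposite another gene, where reads cannot be told apart. The shares were 39.0% for Chrna10, 24.9% for Adrb3, 18.0% for Htr1b, 7.74% for Adra1d, 5.07% for Chrm1 and 2.35% for Chrm2. Alignments without a unique position were not counted (43.4 to 51.4 for every 100 reads counted), so genes sharing sequence can be understated. Lines naming no gene were left out of library sizes (70.8 to 76.5% of uniquely placed reads fell on genes).

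Symbols came from the reference annotation (36602 of 38355 identifiers matched, 1753 did not). Genes were filtered with filterByExpr, normalized by TMM and tested with edgeR 4.0.16 in R 4.3.3 (quasi-likelihood test, no covariate, Benjamini-Hochberg adjustment over 17120 genes, threshold 0.05), and the fits were first tested on simulated data. The 95% intervals used the fitted SE with 9.90 degrees of freedom. Fold changes are 16 over 6 months. DESeq2 1.42.0 and other filters, scalings, a replicate block, GC and gene length offsets and leaving out each sample were alternatives. Ratios used exact permutation tests. Every receptor gene could be named, with values in every sample for genes called, genes with an unadjusted p under 0.05 and the 2 highest per length in each class; other members whose values are given were chosen after these were seen. The values of 1 receptor gene and 1 listed gene are not reported here, while counts over classes and lists include them. Members and lists were chosen with earlier results of these data known. The p-values measure the spread between these samples. Same-numbered samples of the ages were checked for shared deviations and were not treated as pairs. Promoter sequences came from RefSeq on GRCm38.p6, in which Htr3a and Chrm1 were not found.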

Additional observations from a re-analysis of the deposited data

How the results depend on the processing

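Across all 6 samples, Htr2a passed under every alternative, with log2 fold changes from 0.26 to 0.35. The count of all genes called went from 286 to 648 with no filter on low counts, 471 by DESeq2's Wald test, 783 with a replicate block, 2327 with GC content and gene length offsets and 3267 with those offsets and a replicate block; it ran from 48 to 2211 on leaving out 1 sample. Receptor genes called went from 1 to 6 with the offsets and 7 with the offsets and the block, which added Htr1b, and ran from 0 to 6 on leaving out 1 sample: 0 without any young sample or aged replicate 3, 2 without aged replicate 1 and 6 without aged replicate 2. Receptor genes at an unadjusted p under 0.05 ran from 4 to 16 (7 with all samples). Class medians on leaving out 1 sample ran from 0.10 to 0.22 (serotonin), -0.058 to 0.12 (dopamine, both ends with Drd4 newly tested; 0.04 to 0.10 over the same 3 genes), 0.01 to 0.07 (muscarinic), -0.042 to 0.078 (nicotinic), 0.06 to 0.35 (alpha adrenergic) and -0.016 to 0.15 (beta adrenergic). Of the 40 receptor genes 11 turned sign on leaving out some sample, 5 of them without replicate 1 of 16 months. Among those with values in every sample, signs turned for Adra2c (range -0.057 to 0.32) and Adrb1 (-0.016 to 0.25) without replicate 1 of 16 months; the cause was not tested. Deviations of same-numbered samples correlated at 0.180, 0.0958 and 0.0351, and those of other pairs at -0.133 to 0.0379. Replicate 3 of 16 months correlated about equally with replicate 2 (0.0379) and replicate 3 (0.0351) of 6 months, so a pairing was not settled. With the replicate block Htr2a was still the only receptor gene called. The depth leaves Htr3b, Chrna9, Chrnd and Chrng unmeasured beyond their limits of 3 counts.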

Other observations

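Within each age the receptor genes had a larger median SD than all genes tested, but the genes were not matched by level. At 6 months this SD was 0.643 for Adra2b, at 6 to 24 counts, and 0.0195 for Htr2a, at 628 to 1007 counts. The part of count level in the larger median was not tested. The median SD of the receptor genes on the log2 CPM scale was 0.0952 at 6 months and 0.147 at 16 months. Over all genes tested it was 0.0626 and 0.127, and 25 of the 40 receptor genes had the larger SD at 16 months. Replicate 1 of 16 months held the highest value for 18 of the 40 receptor genes (45%, against 29.4% of all genes tested) and for 5 of the 6 alpha adrenergic genes. This sample also had the largest share of reads on genes (76.5%) and the fewest alignments without a unique position (43.4 for every 100 reads counted).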
